A study of Sus scrofa with 2 samples.

Results

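Cells with high transcript levels of the unfolded protein response were described in cultured stem cells of pig fat. They were chosen by 6 genes whose transcripts build up when unfolded proteins collect in the endoplasmic reticulum (ER), namely HSPA5, HERPUD1, DNAJB9, DDIT3, CHAC1 and TRIB3. For each cell the unique molecular identifiers (UMIs, which count each captured transcript once) of the 6 genes were summed and divided by all UMIs of the cell. Within each library the top 5% of barcodes with at least 5000 UMIs formed the UPR-high cells, and the lowest 25% formed the low-score cells they were set against. This gave 480 UPR-high cells of 9581 in library 1 and 580 of 11598 in library 2. Together these were 1060 of 21179 cells at that depth, and of 25207 deposited barcodes. The low-score cells numbered 2396 in library 1 and 2900 in library 2.

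The series holds 2 Chromium 3' single-cell libraries of one group, labelled healthy and without treatment. The source was Bama miniature pigs, whose chest fat was taken by surgery, and the adipose-derived stem cells grown from it went through 3 generations in at most 14 days before freezing. The labels give no age of the animals and do not say whether the libraries come from separate animals, cultures or loadings, so p-values measure only the spread between these libraries, which may be technical. UPR-high and low-score cells were compared within a library, so both share its strain, tissue and preparation.

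The unfolded protein response is run by 3 sensors in the ER membrane. ERN1 (IRE1) splices the XBP1 transcript, ATF6 is cut in the Golgi to free a transcription factor, and EIF2AK3 (PERK) slows translation while favouring that of ATF4. ATF6 and XBP1 mainly raise chaperones and the machinery that removes misfolded proteins, while ATF4 raises amino acid metabolism, DDIT3 (CHOP), TRIB3 and CHAC1. The ATF4 arm is also reached without ER stress, through other kinases of the integrated stress response. Fibroblast-like cells that secrete collagen send a heavy load of protein through the ER.

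The score was a continuum with no gap at the border, and the libraries stood apart on it. In library 1 the median cell had 14.5 UMIs of the 6 genes per 10000 UMIs, the UPR-high cells a median of 30.2 and the low-score cells a median of 7.63. In library 2 the median cell had 6.53, the UPR-high cells 15.2 and the low-score cells 3.40. The lowest UPR-high cell in library 1 scored 27.2431 against 27.2308 for the highest cell left outside, and in library 2 these were 13.3766 and 13.372. The 10 cells just inside the border ran up to 27.3029 and 13.4093, and the 10 just outside down to 27.1685 and 13.3342. The highest scores were 70.7 in library 1 and 37.1 in library 2. A cell called UPR-high in library 2 would not be unusual in library 1, where 5446 cells (56.8%) scored at or above the lowest UPR-high cell of library 2. Conversely 3 cells of library 2 (0.0259%) reached the border of library 1. The class is thus a range of a score inside each library, not a cell type.

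**Figure D1:**
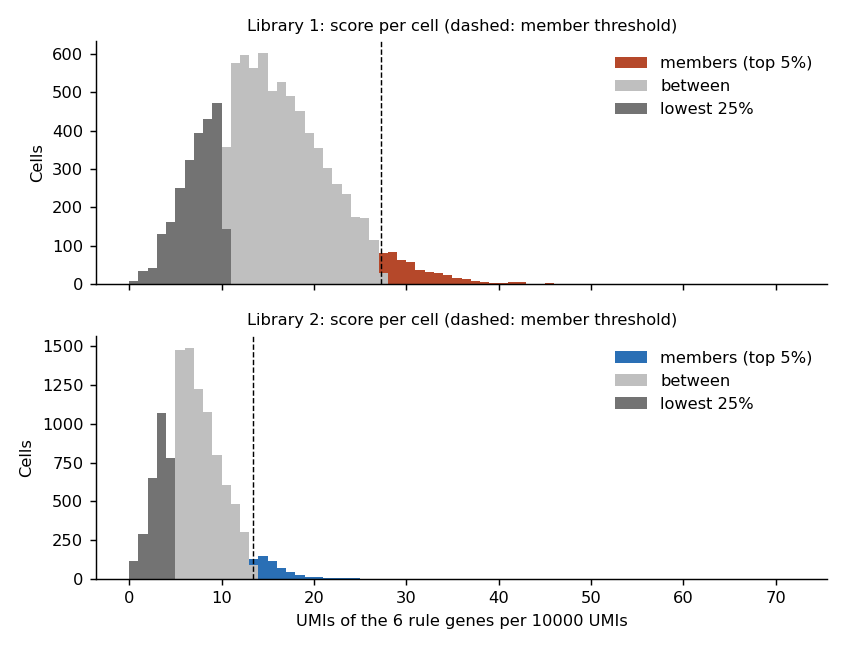
Number of cells (vertical axis) by UMIs of the 6 genes per 10000 UMIs (horizontal axis) in library 1 (top) and library 2 (bottom), with the UPR-high cells in colour, the low-score cells in dark grey and the rest in light grey. The dashed lines mark the lowest UPR-high cell, at 27.2431 in library 1 and 13.3766 in library 2, and lie on the right flank of a single peak in each.

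Levels of the 6 genes are given as counts in each 1e+06 UMIs of the summed cells (CPM), as a description without a test, since they chose the cells. HSPA5 encodes BiP, the main chaperone of the ER lumen and the partner that keeps the sensors inactive. It stood at 1861 CPM in UPR-high cells of library 1 and 593 CPM in those of library 2, against 410 and 135 CPM in low-score cells. HERPUD1, a membrane protein that helps remove misfolded proteins from the ER, had 730 and 470 CPM in UPR-high cells, against 139 and 112 CPM in low-score cells. DNAJB9 (ERdj4), a co-chaperone of BiP, had 113 and 87.8 CPM in UPR-high cells, against 31.0 and 22.7 CPM in low-score cells. These 3 genes of the protein-folding side were well above the low-score cells in both libraries, as the choice of cells requires.

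The other 3 genes are targets of ATF4. DDIT3, a transcription factor tied to cell death under lasting ER stress, had 237 and 147 CPM in UPR-high cells of libraries 1 and 2, against 95.9 and 30.2 CPM in low-score cells. TRIB3, a pseudokinase that restrains ATF4 and AKT signalling, had 92.1 and 99.96 CPM in UPR-high cells, against 33.9 and 19.3 CPM in low-score cells. CHAC1, which degrades glutathione, had 84.9 and 176 CPM in UPR-high cells, against 34.6 and 14.2 CPM in low-score cells. CHAC1 therefore separated the classes far more widely in library 2 than in library 1. In the RefSeq annotation of Sscrofa11.1, HSPA5 lies on chromosome 1 at 265930044 to 265934959 and CHAC1 on the same chromosome at 130360510 to 130363332. DDIT3 spans 22785441 to 22789867 on chromosome 5 and overlaps MARS, a tRNA synthetase gene, so that some of its reads could be split between them. HERPUD1 is at 18901171 to 18913427 on chromosome 6, DNAJB9 at 36578928 to 36584211 on chromosome 18 and TRIB3 at 34808273 to 34819592 on chromosome 17.

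The 2 libraries reached a high score with a different mix of these genes. In the UPR-high cells of library 1, HSPA5 made up 59.7% of the UMIs of the 6 genes, HERPUD1 23.4%, DDIT3 7.59%, DNAJB9 3.61%, TRIB3 2.95% and CHAC1 2.72%. In those of library 2, HSPA5 made up 37.7%, HERPUD1 29.9%, CHAC1 11.2%, DDIT3 9.35%, TRIB3 6.35% and DNAJB9 5.58%. The score of library 1 was thus mostly a score of HSPA5, and that of library 2 held a larger part from ATF4 targets. The share of HSPA5 in the low-score cells was 55.0% in library 1 and 40.5% in library 2, so the libraries also differed in that share among low-score cells.

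To read the levels from UMIs that had not chosen the cells, the cells were also ranked on 1 of 2 equal random parts of their UMIs and the levels taken from the part not used. HSPA5 then had 1654 and 454 CPM in the top 5% of libraries 1 and 2, against 511 and 192 CPM in the lowest 25%. CHAC1 had 79.1 and 137 CPM in the top 5%, against 37.8 and 25.4 CPM in the lowest 25%. The gaps narrowed but stayed in both libraries for these genes. From the lowest to the highest of 5 score bins, HSPA5 in library 1 had 511, 781, 997, 1268 and 1654 CPM, a steady rise and not a step at the top 5%. CHAC1 in library 2 ran through 25.4, 37.1, 53.3, 83.6 and 137 CPM over the same bins.

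**Figure D2:**
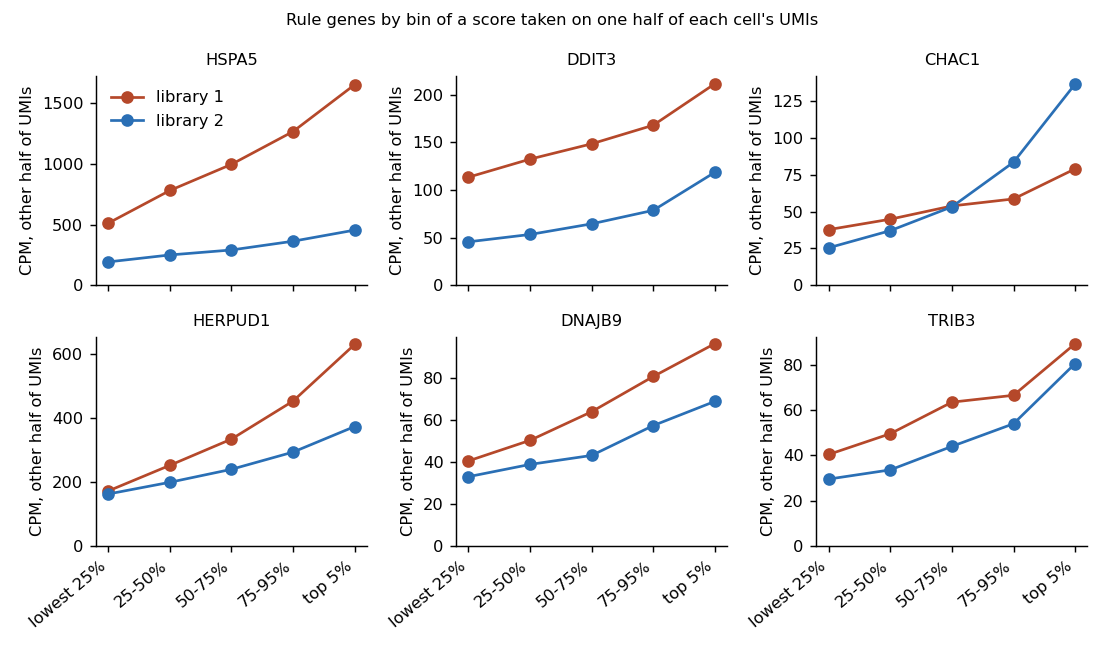
Level of each of the 6 genes (vertical axis, CPM) in 5 bins of the score, from the lowest 25% to the top 5% (horizontal axis), with library 1 in red and library 2 in blue; bins were set on 1 random part of each cell's UMIs and levels read from the other. All 6 genes climb over the bins in both libraries, and CHAC1 is the gene in which library 2 ends above library 1 (137 against 79.1 CPM).

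The UPR-high cells carried the stromal markers of the culture. The 11 stromal markers summed to 7685 CPM in library 1 and 10088 CPM in library 2 in UPR-high cells, against 5596 and 6934 CPM in low-score cells. COL1A2, COL1A1, COL3A1, DCN and LUM were among the abundant ones in both classes, while NT5E (CD73) was low, at 6.80 and 5.05 CPM in UPR-high cells against 6.51 and 9.31 CPM in low-score cells. Markers of other cell types were sparse. Fat cell markers summed to 43.9 and 34.4 CPM in UPR-high cells against 44.3 and 38.3 CPM in low-score cells, nearly all from the lipase PNPLA2, with ADIPOQ and PLIN1 at 0 in UPR-high cells. Plasma cells, which normally have a large ER, were represented by 21.2 and 14.4 CPM in UPR-high cells against 20.3 and 16.6 CPM in low-score cells, mostly SDC1, with MZB1 and TNFRSF17 at 0 in UPR-high cells.

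Markers of the other types were also few. Endothelial markers gave 73.6 and 98.9 CPM in UPR-high cells against 63.3 and 90.5 CPM in low-score cells, mostly ERG and PECAM1, and CDH5 and CLDN5 were at 0 in UPR-high cells. Macrophage markers gave 57.4 and 24.4 CPM against 51.4 and 21.3 CPM, with C1QA, C1QB and CD163 at 0 in UPR-high cells. Most of this was CD14, at 27.9 and 22.5 CPM in UPR-high cells against 24.2 and 19.5 CPM in low-score cells. In library 1 ITGAM added to it, with 25.5 and 0.435 CPM in UPR-high cells against 24.6 and 0.593 CPM. Mural markers summed to 30.9 and 39.5 CPM in UPR-high cells against 30.0 and 37.2 CPM in low-score cells. They came mostly from CSPG4, ABCC9 and KCNJ8, with DES at 0 in UPR-high cells. Epithelial sums were 71.5 and 95.9 CPM in UPR-high cells against 96.3 and 83.5 CPM in low-score cells, from KRT7 and KRT19, with EPCAM and KRT5 at 0 in UPR-high cells. KRT19 differed in opposite directions, with 6.69 and 21.7 CPM in UPR-high cells against 17.8 and 11.0 CPM in low-score cells. Lymphocyte, mesothelial and erythroid sums reached 3.22 CPM at most in any class. A count of 0 in the UPR-high cells of library 1 allows up to 0.304 CPM, by counting error alone.

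Depth and cycling differed between the classes. The median UPR-high cell had 21604 UMIs in library 1 and 20236.5 in library 2, against 18179.5 and 17155.5 for low-score cells. Over the bins depth did not climb to the end, since the 75 to 95% bin had a median of 22579 and 21539.5 UMIs in libraries 1 and 2, above the UPR-high cells. After thinning every cell to 5000 UMIs, the median number of genes was 2029.5 and 2023 in UPR-high cells, against 1951 and 2033 in low-score cells. Mitochondrial RNA genes took a median of 0.132% and 0.110% of UMIs in UPR-high cells, against 0.145% and 0.121% in low-score cells. A cell counted as cycling if 3 or more of 15 core cell cycle genes were detected after thinning. That held for 31.0% of UPR-high cells in library 1 (exact binomial 95% interval 26.9 to 35.4%, counting error only) and 32.2% in library 2 (28.5 to 36.2%), against 44.5% (42.5 to 46.5%) and 46.0% (44.2 to 47.9%) of low-score cells. Over the 5 score bins from low to high the share was 44.5, 42.6, 39.9, 35.1 and 31.0% in library 1, a decline across the whole range. In library 2 the bins gave 46.0, 42.5, 37.8, 33.1 and 32.2%. With 2 libraries no permutation test of this share can pass 0.05, and its part in the gene results was examined only through the non-cycling cells given below.

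Genes outside the 6 were then tested between UPR-high and low-score cells. UMIs were summed over the cells of a class in each library and compared by edgeR's quasi-likelihood test, with the library as a block. To be called, a gene needed a p below 0.05 after Benjamini-Hochberg adjustment, a log2 fold change of 0.5 or more in size, and 1 direction in the 2 libraries. Of 15170 genes tested, 167 were higher (1.1%) and 138 lower (0.91%) in UPR-high cells, and the median log2 fold change of all genes tested was 0.01. The higher genes included transcription factors of the ER response, some ER chaperones, ATF4 targets, amino acid transporters and collagens. The lower genes were led by cell cycle genes. With 1 residual degree of freedom the spread of each gene is largely borrowed from the others. Without the library block 0 genes passed edgeR's test in either direction, although 794 had an unadjusted p under 0.05.

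Several transcription factors of the ER response were higher in UPR-high cells. Of 14 sensors and transducers tested, 5 rose and 0 fell, with a median log2 fold change of 0.30. CREB3L1 (OASIS), an ER-bound factor that drives collagen genes in bone-forming cells of mice, had 91.5 and 112.6 CPM in UPR-high cells of libraries 1 and 2, against 56.8 and 54.0 CPM in low-score cells. Its log2 fold change was 0.87 ± 0.14 (SE; edgeR adjusted p = 0.020). The related CREB3L2, a factor of secretory cells, had 57.9 and 53.2 CPM against 28.4 and 37.2 CPM (log2 0.76). In both genes the 2 UPR-high values lay above both low-score values. Here and below, such a separation only describes the genes named, and its share over all genes was not counted.

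The central factors of the 3 arms rose by less. XBP1 had 112.5 and 131.9 CPM in UPR-high cells, against 71.1 and 78.0 CPM in low-score cells (log2 0.70 ± 0.12, edgeR adjusted p = 0.024); the counts do not separate its spliced form. ATF6 had 87.9 and 114.8 CPM in UPR-high cells, against 60.4 and 67.3 CPM in low-score cells (log2 0.65). ATF4 had 854 and 805 CPM in UPR-high cells, against 619 and 480 CPM in low-score cells (log2 0.60 ± 0.12, edgeR adjusted p = 0.046). The calls of XBP1, ATF6 and ATF4 were lost when all other cells were the comparison. Those of XBP1 and ATF4 were also lost with the score on thinned cells. ATF4 was not called for the top 10% either, nor ATF6 in non-cycling cells. The kinases that sit in the membrane were not called: ERN1 had a log2 fold change of 0.39 (edgeR adjusted p = 0.22) and EIF2AK3 one of 0.35 (edgeR adjusted p = 0.28). In both kinases most of the difference was in library 1, where the log2 values were 0.64 for ERN1 and 0.57 for EIF2AK3, beside 0.14 and 0.10 in library 2.

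Among ER chaperones and folding enzymes, 5 of 36 tested rose and 0 fell, and the list's median was 0.29. DNAJC3 (p58IPK), a co-chaperone of BiP and inhibitor of PERK, had 103 and 71.7 CPM in UPR-high cells, against 47.0 and 46.0 CPM in low-score cells (log2 0.88 ± 0.13, edgeR adjusted p = 0.019). FKBP14, a prolyl isomerase that acts on collagen, had 52.3 and 68.3 CPM against 31.6 and 40.1 CPM (log2 0.74). HYOU1 (GRP170), which exchanges nucleotide on BiP, had 44.4 and 26.6 CPM against 24.9 and 17.6 CPM (log2 0.71). For DNAJC3 and FKBP14, but by a narrower margin for HYOU1, both UPR-high values were above both low-score values. LMAN1, a cargo receptor for export from the ER, and PDIA5, a disulfide isomerase, were called at log2 0.60 and 0.58. The calls of HYOU1, LMAN1 and PDIA5 were lost when all other cells were the comparison. Those of DNAJC3, HYOU1 and LMAN1 were lost when the 6 scoring genes had equal weights. DNAJC3 and PDIA5 were not called in non-cycling cells, HYOU1 not on separate random parts of the UMIs, and PDIA5 not by DESeq2. FKBP14 was lost only with the score on thinned cells.

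Well-known partners of BiP were not called. HSP90B1 (GRP94), the ER member of the HSP90 family, had 988 and 650 CPM in UPR-high cells, against 557.5 and 556.7 CPM in low-score cells (log2 0.52, edgeR adjusted p = 0.12), with 0.78 in library 1 and 0.25 in library 2. CALR, the lectin chaperone calreticulin, had 468 and 506 CPM against 437 and 447 CPM (log2 0.13). CRELD2, a disulfide isomerase induced by ER stress in many cells, had 48.3 and 52.1 CPM against 53.5 and 51.6 CPM (log2 -0.07). The difference of these genes was therefore small or carried by library 1. SERPINH1 (HSP47), the collagen chaperone, had a log2 fold change of 0.79 but missed the threshold (edgeR adjusted p = 0.058), with 0.46 in library 1 and 1.12 in library 2.

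Few genes of the disposal and export routes were called. Of 26 genes of ER-associated degradation, 1 rose, the membrane adaptor SELENOS (144 and 106 CPM in UPR-high cells, against 87.1 and 72.4 CPM in low-score cells, log2 0.63), and the list's median was 0.23. SEL1L, the adaptor of the main ubiquitin ligase of this route, had a log2 fold change of 0.64 and was not called (edgeR adjusted p = 0.060). Of 51 genes of translocation, glycosylation and ER exit, 3 rose and 0 fell. The largest was KDELR3, a receptor that returns escaped ER proteins, with 139 and 163 CPM in UPR-high cells, against 81.2 and 89.2 CPM in low-score cells (log2 0.81 ± 0.12, edgeR adjusted p = 0.017). COPG1 and COPB2, coat proteins of the same return traffic, had log2 fold changes of 0.58 and 0.55. In this list 40 of the 51 genes were above 0 in both libraries, beside 30% of all genes tested.

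Of 24 ATF4 targets that act as regulators, 8 rose in UPR-high cells and 0 fell, with a median of 0.63. TXNIP, an inhibitor of thioredoxin that is also induced by glucose, had 23.9 and 20.3 CPM in UPR-high cells, against 8.76 and 4.41 CPM in low-score cells (log2 1.80 ± 0.21, edgeR adjusted p = 0.012). SESN2, which restrains mTORC1, had 41.1 and 60.7 CPM against 19.6 and 17.6 CPM (log2 1.43). GADD45A, a growth-arrest and DNA damage gene, had 325 and 170 CPM against 141 and 89.5 CPM (log2 1.06). Both UPR-high values exceeded both low-score values in each of these 3 genes. NUPR1, a small chromatin protein of stress, was called at 0.74, VEGFA, the vascular growth factor, at 0.66 and JDP2, an AP-1 family repressor, at 0.60. INHBE, a subunit of activin E, and STC2, a secreted glycoprotein, were rare. INHBE rested on 15 and 26 UMIs in UPR-high cells, against 13 and 6 UMIs in low-score cells (log2 3.36), and STC2 was at 4.56 and 2.26 CPM against 1.66 and 0.51 CPM (log2 1.73).

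Some ATF4 targets differed unequally in the libraries and were not called. PPP1R15A (GADD34), which lets translation resume, had 437 and 170 CPM in UPR-high cells, against 184 and 140 CPM in low-score cells (edgeR adjusted p = 0.15). ATF3, a stress-induced factor, had 430 and 115 CPM against 184 and 101 CPM (edgeR adjusted p = 0.21). Both were far apart mainly in library 1. DDIT4, an mTORC1 inhibitor, differed more in library 2, with log2 values of 0.64 in library 1 and 1.46 in library 2 (edgeR adjusted p = 0.058).

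The amino acid genes that ATF4 controls had a median of 0.72, with 0.38 in library 1 and 0.92 in library 2. Of 22 tested, 5 rose and 0 fell, and 20 were above 0 in both libraries. SLC7A11, the cystine importer that feeds glutathione synthesis, had 84.1 and 206 CPM in UPR-high cells, against 43.8 and 56.5 CPM in low-score cells (log2 1.41 ± 0.24, edgeR adjusted p = 0.046). SLC6A9, a glycine transporter, had 28.5 and 41.1 CPM against 15.9 and 14.1 CPM (log2 1.19). SLC7A1, an arginine transporter, had 51.3 and 45.5 CPM against 24.0 and 26.8 CPM (log2 0.92). For all 3 carriers both UPR-high values lay above both low-score values. ALDH1L2, a mitochondrial folate enzyme, and SLC38A1, a glutamine transporter, were called at 0.91 and 0.85.

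Serine and asparagine enzymes differed unequally in the libraries and were not called. PSAT1, of serine synthesis, had 155 and 274 CPM in UPR-high cells, against 108 and 90.2 CPM in low-score cells, with log2 values of 0.47 in library 1 and 1.63 in library 2 (edgeR adjusted p = 0.14). ASNS, which makes asparagine, had 109 and 161 CPM against 79.4 and 58.1 CPM (log2 0.96, edgeR adjusted p = 0.14). Both differed more in library 2, where ATF4 targets held a larger part of the score, and a link between these was not tested. Of 20 aminoacyl-tRNA synthetases, which charge tRNAs with amino acids, 4 rose and 0 fell (log2 fold changes of AARS 0.90, TARS 0.80, CARS 0.77 and GARS 0.68), with a median of 0.51. Over the 5 score bins, low to high, the summed level of the amino acid list was 1224, 1275, 1322, 1396 and 1585 CPM in library 1. In library 2 it was 976, 1191, 1395, 1662 and 2027 CPM, a wider climb.

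**Figure D3:**
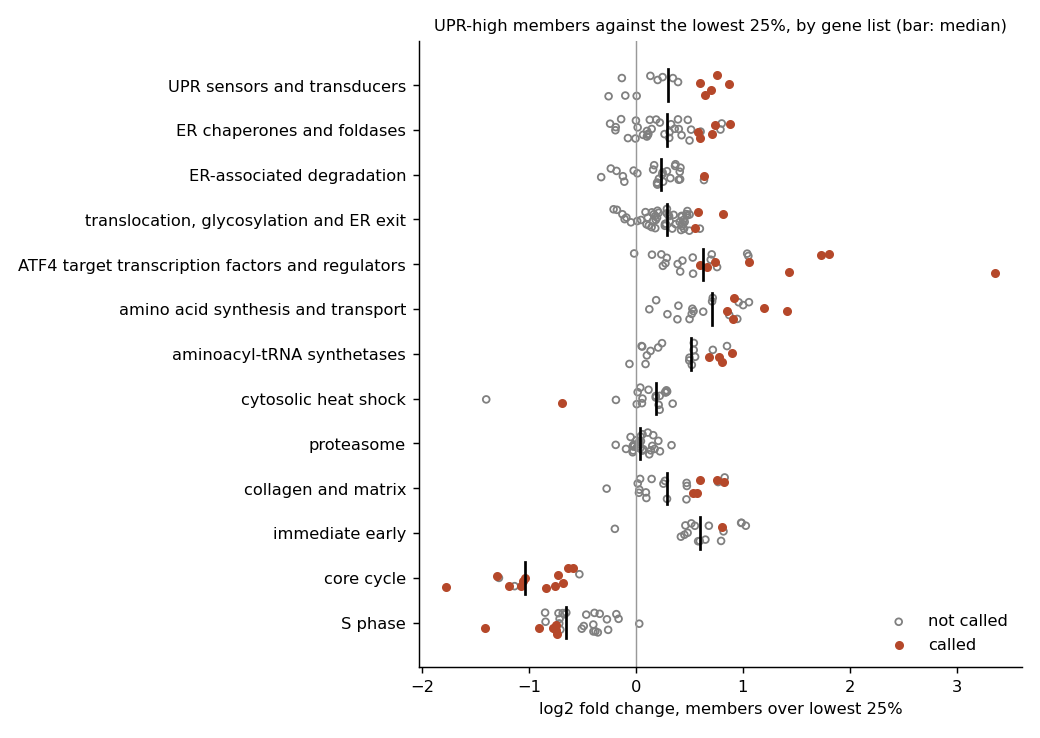
Log2 fold change of each tested gene, UPR-high over low-score cells (horizontal axis), by gene list (vertical axis), with called genes filled in red, other genes open and a black bar at the list's median. ATF4 targets, amino acid genes and tRNA synthetases have medians of 0.63, 0.72 and 0.51, the ER chaperones one of 0.29 and the core cycle genes one of -1.04.

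Immediate early genes respond within minutes to serum or stress. Their median was 1.08 in library 1 and 0.25 in library 2, and 1 of 17 was called. That was MYC, a growth-promoting factor, with 195 and 60.6 CPM in UPR-high cells, against 89.5 and 43.3 CPM in low-score cells (log2 0.80). FOS and JUN were picked from this list after their values were seen. FOS, a component of AP-1, had 282 and 171 CPM against 91.2 and 134 CPM, with log2 values of 1.58 in library 1 and 0.38 in library 2 (edgeR adjusted p = 0.17). JUN, its partner, had 1379 and 614 CPM against 460 and 438 CPM, with 1.54 and 0.52 (edgeR adjusted p = 0.10). The gap between the libraries was not tested.

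**Figure D4:**
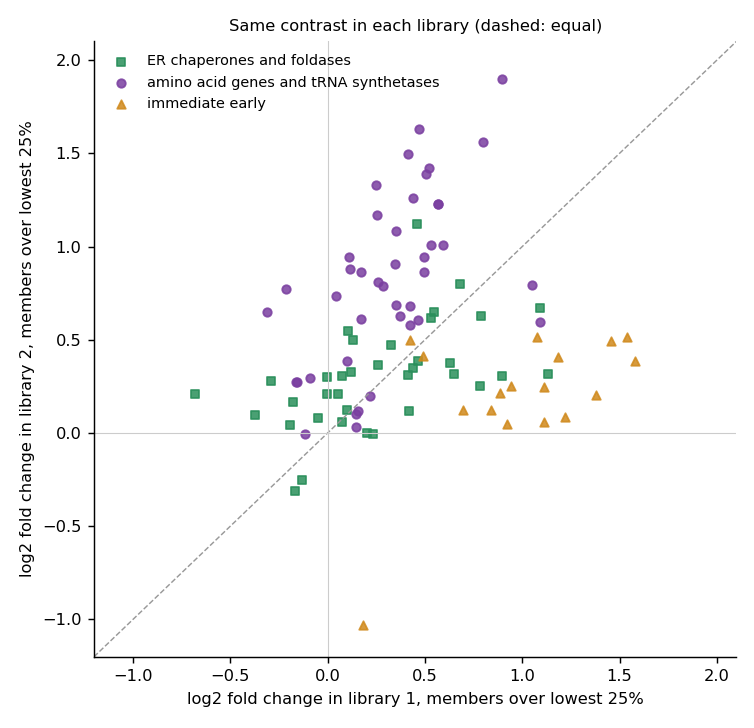
Log2 fold change of UPR-high over low-score cells in library 1 (horizontal axis) and library 2 (vertical axis) for genes of 3 groups of lists, with a dashed line where both are equal. Amino acid and tRNA synthetase genes (circles) lie mostly above the line and immediate early genes (triangles) mostly below it. The immediate early list has medians of 1.08 in library 1 and 0.25 in library 2.

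Some collagen and matrix genes were higher in UPR-high cells: of 21 tested, 5 rose and 0 fell, with a median of 0.29. COL1A1 and COL1A2 encode the chains of type I collagen. COL1A1 had 1348 and 1923 CPM in UPR-high cells, against 981 and 1144 CPM in low-score cells (log2 0.60 ± 0.12, edgeR adjusted p = 0.045). COL1A2 had 2645 and 3901 CPM against 1809 and 2703 CPM (log2 0.53). For COL1A2 the UPR-high value of library 1 lay below the low-score value of library 2, so the classes were apart within each library and not across them. LOX, which cross-links collagen, was called at 0.82, COL12A1, a collagen bound to fibrils, at 0.76 and the proteoglycan DCN at 0.57. MIA3 (TANGO1), which loads procollagen into carriers at the ER, was the 1 gene called of 16 in collagen processing (log2 0.66). The calls of COL1A1, COL12A1, LOX and DCN were lost in non-cycling cells, and those of COL1A2 and DCN on separate random parts of the UMIs. All 5 collagen and matrix calls, and that of MIA3, were lost when all other cells were the comparison. Those of COL1A1, COL1A2 and DCN were also lost with the score on thinned cells and for the top 10%. The summed level of the collagen and matrix list over the 5 score bins, low to high, was 8683, 8898, 9260, 9831 and 10871 CPM in library 1. It was 10365, 11085, 11776, 12751 and 14248 CPM in library 2, higher in each bin than in the one before.

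Few genes of stress programmes outside the ER were called. Of 19 cytosolic heat shock genes 0 rose and 1 fell, the small heat shock gene CRYAB (log2 -0.69). Of 17 oxidative stress genes 0 rose and 1 fell, the metallothionein MT1A, from 11 and 9 UMIs in UPR-high cells against 161 and 181 UMIs in low-score cells (log2 -1.81). None of the 30 proteasome genes and 20 autophagy and lysosome genes was called by edgeR or DESeq2, 1 and 3 of them had an unadjusted p under 0.05, and both medians were 0.04. Of 16 regulators of cell death 1 was called, BBC3 (PUMA), a BH3-only activator of apoptosis, with 39.2 and 12.9 CPM in UPR-high cells, against 16.9 and 8.90 CPM in low-score cells (log2 0.89 ± 0.17, edgeR adjusted p = 0.038). BBC3 was therefore higher within each library, while the other 15 genes of that list were not called.

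Several further lists had 1 to 3 calls. In the interferon list of 21 genes USP18, a deconjugase of ISG15, and MX1, an antiviral GTPase, rose (1.03 and 0.87). In the hypoxia list of 23 genes HK2, a hexokinase, and ADM, a vasodilator peptide, rose (0.69 and 0.64), but the list's median was -0.03. VCAM1, an adhesion molecule, was the 1 call of 19 inflammatory genes (0.74), CYP51, a sterol demethylase, that of 19 cholesterol genes (0.54) and HBEGF, an EGF receptor ligand, that of 22 growth factors (1.10). HBEGF rested on 276 and only 19 UMIs in UPR-high cells of libraries 1 and 2, against 510 and 71 UMIs in the larger low-score class. Its call was lost with DESeq2, with the score on thinned cells, with equal weights of the 6 genes and for the top 10%. Of 19 contraction and TGF-beta genes, the growth factor TGFB2 and the matricellular genes CYR61 and CTGF rose (0.95, 0.81 and 0.63). No gene of the senescence list (13 tested), the adipogenic list (12) or the ribosomal protein list (31) was called by edgeR or DESeq2; 5, 5 and 0 of them had an unadjusted p under 0.05.

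Many cell cycle genes were lower in UPR-high cells. Of 15 core cycle genes 12 fell and 0 rose, with a median of -1.04, and of 29 S phase genes 6 fell and 0 rose, with a median of -0.65. UBE2C, the ubiquitin-conjugating enzyme of mitotic exit, had 107 and 72.2 CPM in UPR-high cells, against 301 and 297 CPM in low-score cells (log2 -1.77 ± 0.14, edgeR adjusted p = 0.0039). CDK1, the mitotic kinase, had 25.1 and 13.7 CPM against 49.3 and 42.1 CPM (log2 -1.30). CDT1, which licenses replication origins, had 5.88 and 5.65 CPM against 16.3 and 14.3 CPM (log2 -1.41). In all 3 the classes did not overlap, a description given without its share over all genes. MKI67, the Ki-67 antigen, and CCNA2, cyclin A, fell by 1.19 and 1.07 on the log2 scale. CLSPN, MCM2 and MCM4, of replication, fell by 0.90, 0.77 and 0.75. Outside these lists the largest falls were in TROAP, ARHGEF39, NEK2, CDCA3 (log2 0.32 in non-cycling cells alone), CDC25B and CCNF, most of them genes of mitosis, at -1.21 to -1.65, and in the collagen IV gene COL4A3, at -1.39. For COL4A3 a single cell gave 25.7% and 25% of the UMIs of the UPR-high cells.

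Outside the lists, the largest rises included genes of secretion and matrix. LCN2 (lipocalin 2), a secreted iron-siderophore carrier, had 36.5 and 63.5 CPM in UPR-high cells, against 14.7 and 13.8 CPM in low-score cells (log2 1.77 ± 0.23, edgeR adjusted p = 0.026). PTX3, a secreted pattern-recognition protein, had 141 and 158 CPM against 65.7 and 40.4 CPM (log2 1.53). ALDH1A3, which makes retinoic acid, had 26.0 and 33.4 CPM against 8.09 and 10.6 CPM (log2 1.66). Each was at least 1.06 higher on the log2 scale in either library. LOXL4, a lysyl oxidase, had 8.11 and 13.6 CPM against 2.99 and 3.28 CPM (log2 1.76), and LMCD1, a LIM-domain regulator, and UNC5B, a netrin receptor, were called at 1.43 and 1.40. HOMER1, a scaffold protein, was called at 1.67, but in library 2 a single cell held 68.0% of its 25 UMIs in UPR-high cells.

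Both classes were also restricted to cells with none of the 15 core cycle genes detected after thinning, called non-cycling; cells with 1 or 2 of them (44.0% and 36.9% of UPR-high cells, 37.4% and 35.8% of low-score cells) were left out with the cycling ones. This left 120 and 179 UPR-high cells and 432 and 527 low-score cells. Of 11775 genes tested there, 88 were higher and 37 lower. Among them were 67 of the 167 higher genes and 12 of the 138 lower genes. The amino acid list had 8 of 22 genes higher, the ER chaperones 4 of 36 and the collagen and matrix list 1 of 20 higher and 1 lower, with fewer cells in the sums. Core cycle genes chose these cells, so their values there are not a result. When the classes were chosen within deciles of total UMIs, 299 genes were higher and 134 lower. Across the 13 other settings that kept the library block, CREB3L1, KDELR3, SESN2, TXNIP, GADD45A, SLC7A1, LOXL4 and ALDH1A3 were called in every one, while SLC7A11 and JDP2 were called in 6 and DCN in 7.

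UPR-high cells were not uniform, and they were split by the kind of gene that raised their score. The share of DDIT3, CHAC1 and TRIB3 in the UMIs of the 6 genes ranked the UPR-high cells of each library. The highest 25% are called ATF4-arm-led and the lowest 25% chaperone-led. The ATF4-arm-led cells numbered 121 and 145 in libraries 1 and 2, with a median share of 23.0% and 44.8%; the chaperone-led cells numbered 120 and 147, with 4.77% and 10%. CHAC1 stood at 198 and 309 CPM in ATF4-arm-led cells, against 16.8 and 42.7 CPM in chaperone-led cells, and HSPA5 at 1598 and 426 CPM against 2009 and 795 CPM. These values follow from the ranking. HERPUD1 had 602 and 378 CPM in ATF4-arm-led cells, against 844 and 509 CPM in chaperone-led cells. The co-chaperone DNAJB9 had 126 and 69.0 CPM against 105 and 111 CPM, so it went against the class name in library 1. The name chaperone-led thus refers to a low share of the 3 ATF4 targets. Cycling shares were 28.9% and 37.9% in ATF4-arm-led cells and 29.2% and 37.4% in chaperone-led cells, so the classes were close in that respect. Median depth was 20664 and 19037 UMIs in ATF4-arm-led cells, against 23421 and 21781 in chaperone-led cells.

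Between these classes 113 of 10557 genes were higher (1.07%) and 37 lower (0.35%) in ATF4-arm-led cells by the same edgeR test. In the amino acid list 15 of 22 genes rose and 0 fell, with a median of 0.87, and 0.78 and 0.86 in libraries 1 and 2. The spread of this fit was pooled over all genes, and the smallest p-values depend on this. DESeq2 with the same thresholds called 18 genes higher and 2 lower, and ranking and testing on separate random parts of the UMIs gave 25 and 3. Of the amino acid list 6 genes were still called by DESeq2 and 8 on separate parts. Leaving out barcodes with the highest UMIs gave 57 and 12.

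Transcripts of the 3 enzymes of serine synthesis were higher in ATF4-arm-led cells. PHGDH, which opens the pathway, had 215 and 251 CPM in ATF4-arm-led cells of libraries 1 and 2, against 101 and 99.9 CPM in chaperone-led cells (log2 1.26 ± 0.11, edgeR adjusted p = 1.74e-29). PSAT1, the second enzyme, had 251 and 379 CPM against 95.2 and 131 CPM (log2 1.52 ± 0.10, edgeR adjusted p = 3.07e-47). PSPH, the last, had 120 and 179 CPM against 72.3 and 75.1 CPM (log2 1.06). No gene of the 3 overlapped between classes, a description given without its share over all genes. All 3 were called in each of the other settings that kept the library block. ASNS had 157 and 204 CPM against 81.1 and 91.8 CPM (log2 1.11), GPT2, an alanine transaminase, 5.73 and 11.9 CPM against 1.15 and 3.01 CPM (log2 2.11), and PYCR1, of proline synthesis, 249 and 214 CPM against 129 and 127 CPM (log2 0.90). The mitochondrial folate enzymes MTHFD2, SHMT2 and ALDH1L2 were called at 0.71, 0.57 and 0.86, but these 3 calls were lost with DESeq2 and on separate random parts of the UMIs. The call of GPT2 was also lost on separate parts.

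Transporters of the same list were also called. SLC7A11 had 105 and 278 CPM in ATF4-arm-led cells, against 61.6 and 153 CPM in chaperone-led cells (log2 0.88). SLC7A5 and SLC3A2, which together form the carrier of large neutral amino acids, were called at 1.13 and 0.79. SLC1A4 and SLC1A5, of small neutral amino acids and glutamine, and SLC6A9 of glycine, were called at 1.22, 0.85 and 1.16. On separate random parts of the UMIs the calls of SLC7A5, SLC3A2 and SLC1A4 were lost. DESeq2 did not call SLC3A2, SLC1A5 or SLC6A9. Of 20 tRNA synthetases 5 rose and 0 fell, WARS at 1.06, AARS at 0.82, SARS and GARS both at 0.73 and IARS at 0.59.

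ATF4 itself had 1031 and 948 CPM in ATF4-arm-led cells, against 705 and 633 CPM in chaperone-led cells (log2 0.61 ± 0.06, edgeR adjusted p = 2.96e-18). Of 21 ATF4 target regulators 7 rose and 0 fell. DDIT4 had 285 and 190 CPM against 129 and 63.1 CPM (log2 1.40), SESN2 was called at 1.27, ATF5, a related factor, at 1.16, NUPR1 at 0.86, VEGFA at 0.62 and CEBPG, a dimer partner of ATF4, at 0.52. GDF15, a secreted stress hormone, was rare, with 17 and 20 UMIs against 5 and 1 (log2 2.78), and a single cell held 29.4% and 35.0% of them. CREB3L1 and ATF6 were called at 0.89 and 0.52, whereas XBP1 had 122 and 131 CPM against 115 and 129 CPM (log2 0.10). BBC3 had 43.2 and 19.9 CPM against 31.0 and 6.35 CPM (log2 0.90), but was not called by DESeq2 or on separate parts of the UMIs. The calls of VEGFA, CEBPG, ATF6 and CREB3L1 were lost in both of these settings too.

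Chaperones did not separate these classes to the threshold. Of 35 tested 0 were called by edgeR in either direction, with a median of -0.17, and 20 were below 0 in both libraries, beside 27% of all genes tested. HSP90B1 had 845 and 561 CPM in ATF4-arm-led cells, against 1059 and 812 CPM in chaperone-led cells (log2 -0.38 ± 0.06, edgeR adjusted p = 8.2e-07), and CALR 395 and 404 CPM against 494 and 635 CPM (log2 -0.44 ± 0.08, edgeR adjusted p = 1.1e-06). Both passed on p and fell short of the fold of 0.5. HYOU1 and DNAJC3 had log2 fold changes of -0.45 and -0.42 and were not called. DESeq2 called none of these 35 genes, and 13 had an unadjusted p under 0.05 in edgeR. None of 25 degradation genes or 51 genes of translocation and export was called by either tool, with medians of -0.04 each and 2 and 6 genes at an unadjusted p under 0.05.

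**Figure D5:**
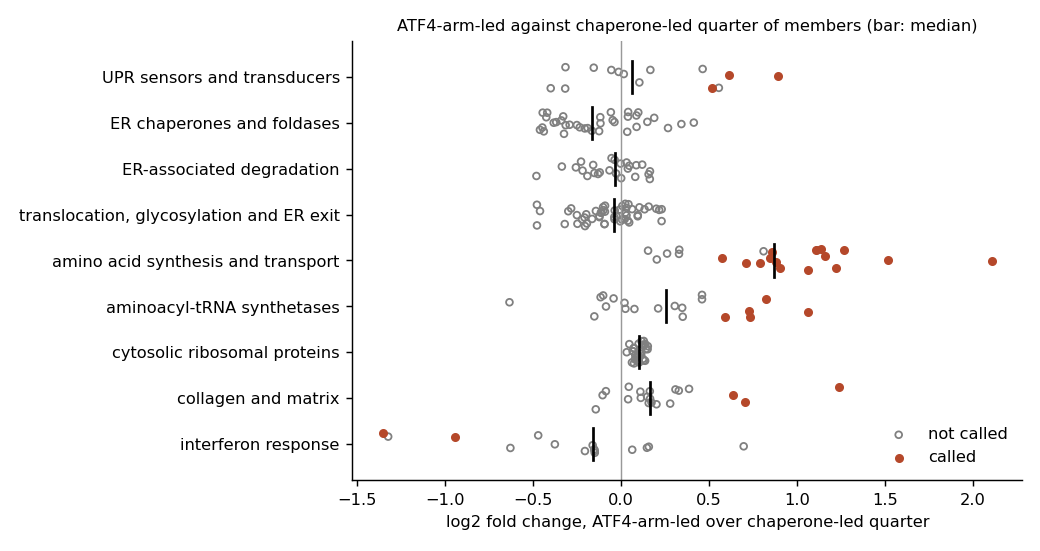
Log2 fold change of each tested gene, ATF4-arm-led over chaperone-led cells among the UPR-high cells (horizontal axis), by gene list (vertical axis), with called genes in red, other genes open and a black bar at the list's median. The amino acid genes have a median of 0.87 with 15 of 22 called, and the ER chaperones one of -0.17 with none of 35 called by edgeR.

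Of 20 genes of collagen and matrix, 3 rose in ATF4-arm-led cells and 0 fell, with a median of 0.16. COL1A1 had 1665 and 2201 CPM in ATF4-arm-led cells, against 1103 and 1471 CPM in chaperone-led cells (log2 0.63 ± 0.05, edgeR adjusted p = 4.63e-30). FN1, fibronectin, was called at 0.70 and LOXL2, a lysyl oxidase, at 1.24. In the growth factor list PDGFC, a ligand of platelet-derived growth factor receptors, rose (0.82) and GREM1, a BMP antagonist, fell (-0.96). A single cell held 41.5% and 50% of the GREM1 UMIs of the ATF4-arm-led cells. ALDH1A1, a retinaldehyde dehydrogenase, had 58.7 and 80.9 CPM against 29.1 and 20.4 CPM (log2 1.56).

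Genes lower in ATF4-arm-led cells were few and mostly rare. Of the 37, only 2 were also called by DESeq2 and only 1 on separate random parts of the UMIs. None of the falls named here, nor that of GREM1, was called on separate parts. Of 16 inflammatory genes CXCL2, a neutrophil chemokine, fell (-0.68) and so did TNFAIP3, a brake on NF-kappaB (-0.59). Of 15 interferon genes 2 fell, OAS1, an antiviral sensor of double-stranded RNA (-0.94), and ISG15, a ubiquitin-like modifier (-1.35). ISG15 had 38.4 and 19.5 CPM in ATF4-arm-led cells, against 65.4 and 82.5 CPM in chaperone-led cells. On separate parts of the UMIs its log2 fold change was 0.50, of the other sign. A single cell held 29.6% of its UMIs in the ATF4-arm-led cells of library 2. The stromal marker ENG (endoglin) fell by 0.53 and the lysosomal protease gene CTSL by 0.63 on the log2 scale, and other large falls, at -0.98 to -1.29, were in PRELP (a matrix proteoglycan), MMP1 (collagenase), TRIM9 (a ubiquitin ligase), GBP1 (a guanylate-binding protein), SUPT7L (a subunit of a histone acetylase complex), FST (follistatin) and CACNA1D (a calcium channel).

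Some of the largest rises rested on very few cells. SLC5A9, a sugar transporter, had 30 UMIs in each library's ATF4-arm-led cells, from 1 and 2 cells, against 0 and 0 in chaperone-led cells; at a floor of 3 counts per library it was at least 11.5-fold and 10.8-fold higher. ACTA2, smooth muscle actin, had 116 and 145 CPM in ATF4-arm-led cells, against 14.2 and 102 CPM in chaperone-led cells (log2 1.37), with 37.0% and 21.2% of the UMIs of ATF4-arm-led cells from a single cell. KRT19, a keratin listed as an epithelial marker, had 25 and 63 UMIs against 13 and 33, with 48.0% and 27.0% from a single cell. RIMS2, of vesicle release, PLCE1, a phospholipase, PIEZO2, a mechanosensitive channel, and KCNQ5, a potassium channel, were called at 1.41 to 1.57 from 16 to 128 UMIs in ATF4-arm-led cells. The 31 ribosomal protein genes had a median of 0.10 and 0 calls by edgeR or DESeq2, with 20 at an unadjusted p under 0.05 in edgeR, and 30 of them were above 0 in both libraries, beside 28.2% of all genes tested.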

How the data were processed

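Single-cell RNA was measured in 2 libraries of 1 group. The authors deposited raw UMI counts, 1 matrix a library. Per the file headers they come from Cell Ranger 7.0.0; the submitters' processing notes name 7.00 and Sscrofa11.1. Annotation, strand setting and cell calling: not given in the sources used here. Libraries held 211527905 and 246316928 UMIs in 12251 and 12956 barcodes, of which 9581 and 11598 reached 5000 UMIs and held 97.9% and 99.2% of UMIs.

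Classes were built as described above in Python 3.11.15 (numpy 2.4.6, scipy 1.17.1, pandas 2.3.3), and the members and gene lists were chosen with earlier results of these data known. Counts of each class and library (4 sums) were fitted in edgeR 4.0.16 in R 4.3.3 (TMM, filterByExpr, robust quasi-likelihood F test), after a test on simulated data. The library is the block because both classes come from the same 2 libraries. The 6 scoring genes were left out of tests and adjustment. DESeq2 1.42.0 was an alternative, beside other scaling, filters, scores, class sizes, cell sets and single libraries. Genes named were the called members of the lists on ER stress, ATF4, amino acids, tRNA charging and cell death, with members of these lists that were not called as examples. From other lists up to 4 called members of at least 1 CPM were named (all where 5 or fewer), and in each direction the 10 largest changes of at least 5 CPM. No doublet caller was run; 46 barcodes occur in both libraries (32 at 5000 UMIs or more, 4 of them UPR-high in 1 library, 0 in both). Promoter and protein sequences were not analysed here. A gene that this rule names is not reported here.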

Additional observations from a re-analysis of the deposited data

Results flagged for a closer look

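Barcodes with fewer than 5000 UMIs were left out of the classes (2670 in library 1 and 1358 in library 2), yet they held UMIs of the 6 genes. Their summed score was 16.8 per 10000 UMIs in library 1 and 8.22 in library 2. The cells kept had 15.4 and 7.09 by the same sum. The difference was not tested.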

How the results depend on the processing

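Between UPR-high and low-score cells, 167 genes were higher and 138 lower, and these counts stayed within 1.5 times with RLE scaling, DESeq2, a score on thinned cells, separate random parts of the UMIs, the top 10%, all other cells as the comparison, the cell filter and, chosen after seeing the data, without barcodes present in both libraries. The genes were less stable than the counts: of the 167 higher and 138 lower genes, 77 and 106 were called against all other cells, and 99 and 76 with the score on thinned cells. The higher and lower counts were 383 and 440 without the low-count filter, 565 and 538 with equal weights of the 6 genes, 369 and 253 for the top 2.5%, and 88 and 37 in non-cycling cells only; within depth deciles 299 were higher. In a single library, without a test, 1286 to 1929 genes were past the fold of 0.5 upward and 1705 to 1742 downward; 162 and 157 of the 167 higher genes were among them in library 2 and library 1. Between ATF4-arm-led and chaperone-led cells the counts were 113 and 37, and they became 18 and 2 with DESeq2, 25 and 3 on separate random parts, and 57 and 12 with the cell filter, while 17 were lower with the outer classes of 3 of equal size in place of 4. In a single library 904 to 946 genes were past the fold upward and 805 to 817 downward. RLE scaling, no low-count filter and the removal of shared barcodes kept these counts within 1.5 times. Without the replicate block, which removes the pairing of classes within a library, edgeR called 0 higher and 0 lower in both comparisons, with 794 and 228 genes at an unadjusted p under 0.05. Of the genes named, CDCA3 turned to 0.32 in non-cycling cells and ISG15 to 0.50 on separate random parts. Of 73 called genes named in the first comparison 14 were called in every block setting, of up to 13, in which they were tested. For MKI67, CCNA2, TROAP, ARHGEF39, NEK2 and CCNF, which are among the 14, these were 12 settings. Of 58 in the second comparison 16 were called in every one, of up to 7, in which they were tested. For GDF15 and SLC5A9, which are among the 16 and rested on few UMIs, these were only 5 settings. The causes were not tested. Of the 118 called genes named, 32 overlap another gene in the annotation, and their reads may be shared. Genes with few UMIs are limited by depth, and intervals cover counting error only.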
